A study of Arabidopsis thaliana with 21 samples.

Results

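Roots fixed at the end of parabola 10 were compared with roots fixed at the end of parabola 3 of the same C-9 flight, an aircraft flight in which steep climbs and descents alternate increased and near-zero gravity. The comparison used 6 of the 21 arrays of the series, 3 per stage, chosen by their titles. It covered the 16722 probe sets that the platform annotation pairs with 1 gene, of 38408 on the array. They stand for 16542 genes. Both groups were whole roots of wild-type Arabidopsis thaliana seedlings of the Wassilewskija (WS) cultivar, 12 days old, grown at 19 °C in 24 h light on a medium with sucrose. No group carried a mutation or transgene. The parabola 10 end seedlings had passed through 10 parabolas and the parabola 3 end seedlings through 3. The other 5 groups, used here for levels and a comparison of tubes, were fixed in level flight, at the start of parabola 1, at its midpoint in tubes A and B, and at its end.

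Seedlings had been moved on the morning before the flight onto moistened wipes in Kennedy Space Center Fixation Tubes, closed devices that flood the sample with the preservative RNAlater. Roots were cut from shoots after fixation. Per the labels, the 3 replicates of a stage are root pools from a single tube, so stage and tube cannot be told apart. The p-values reflect only how far pools from the same tube differed, and carry no information on other tubes or flights. Time since transfer to the tube also grew with the parabola number and cannot be told apart from it. "Rose" and "fell" below stand for differences between these tubes.

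As background, plant cells short of sugar turn on the SnRK1 kinase programme, which shifts metabolism from growth to breakdown. Branched-chain amino acids are then oxidised in mitochondria, asparagine is split, and sugars are moved between vacuole and cytosol. Root growth in turn needs wall loosening by expansins, remodelling of cellulose and pectin, and tight control of auxin, the hormone that sets cell elongation.

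Leaf markers did not separate the groups. The 12 measured nuclear photosynthesis genes of the leaf list summed to 142 to 164 on the linear scale at parabola 10 end and 131 to 155 at parabola 3 end, ranges that overlap. None passed the test, and their median difference was -0.01 on the log2 scale. Of root markers, JKD, a transcription factor of the root meristem, had 6.75, 6.80 and 6.84 (log2) at parabola 10 end and 6.66, 6.69 and 6.28 at parabola 3 end. Its groups did not overlap, with a difference of 0.25 that did not pass (limma adjusted p = 0.471). The 2 measured root hair genes, EXPA7 and EXPA18, averaged 3.35 to 3.42 (log2) at parabola 10 end and 3.57 to 3.75 at parabola 3 end, with no overlap, while their sums on the linear scale, 20.8 to 25.1 at parabola 10 end and 23.7 to 27.1 at parabola 3 end, overlapped. The 2 genes went opposite ways, with log2 differences of -0.62 in EXPA18 and 0.09 in EXPA7, and neither passed the test. The lists for endodermis, xylem and phloem had no measured member. Arrays of one group correlated at 0.991 to 0.994 over probe sets, and column medians of all arrays lay between 2.92 and 3.04.

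The first question was how many transcripts differed between the stages. Of the 16722 single-gene probe sets, 45 were higher at parabola 10 end (0.269%) and 48 were lower (0.287%) in limma at an adjusted p under 0.05. Over all 17481 named probe sets, which the adjustment covered, 96 passed (0.549%), 47 higher (0.269%) and 49 lower (0.28%), and 1705 had an unadjusted p under 0.05 (9.75%). The 45 rises ran from 1.39-fold to 3.13-fold with a median log2 difference of 0.75, and the 48 falls from 1.39-fold to 2.96-fold with a median of -0.76. At least 2-fold were 11 rises (0.0658%) and 10 falls (0.0598%). Over all single-gene probe sets the median difference was -0.01. The 3 parabola 10 end arrays lay all above the 3 parabola 3 end arrays for 7.49% of probe sets and all below for 8.96%, and all 93 called genes were among these.

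Midpoint tube A against tube B, fixed at the same moment, gave 245 calls (1.4%), 51 higher and 194 lower in tube A. That count rested on single arrays too: it was 33 when replicate 2 of tube B was left out. Omitting replicates 1, 2 and 3 of tube A in turn gave 155, 74 and 391. In fits of only the 6 arrays compared, tube A against tube B gave 0 calls in limma (1802 at an unadjusted p under 0.05) and parabola 10 end against parabola 3 end 45. The tube was also fitted as a random block. The limma estimate of the within-tube correlation (duplicateCorrelation) was -0.0726, so 0.221 was used instead. That value came from the difference between midpoint tubes A and B, a single pair, and the spread within all 7 groups. With this block 0 probe sets passed for parabola 10 end against parabola 3 end in limma. At an unadjusted p under 0.05 there were 591, and the smallest adjusted p was 0.19. Each call of parabola 10 end against parabola 3 end given below is therefore one that this block ends. Leaving out single arrays also lowered the count, to 39 without parabola 10 end replicate 3, 48 without parabola 10 end replicate 1 and 43 without parabola 3 end replicate 3. Called genes were seldom dim: 1 of the 45 rises and 4 of the 48 falls were below the median brightness of named probe sets in both groups, against 49.3% of all single-gene probe sets.

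In what follows, a signed number is a log2 difference, parabola 10 end minus parabola 3 end, and a bare number in brackets after it is its adjusted p in limma.

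**Figure D1:**
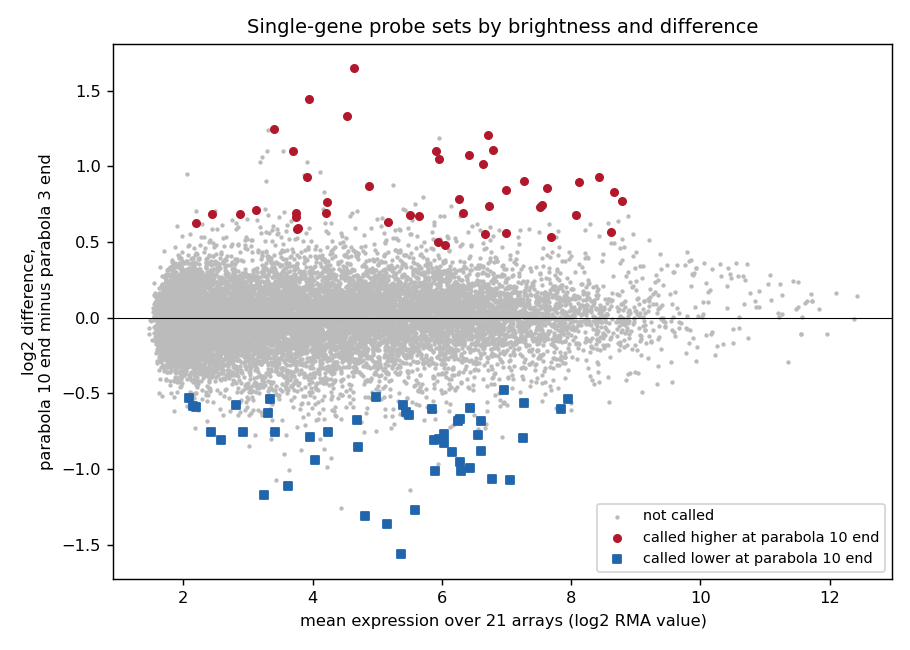
Each point is a single-gene probe set. The x axis is its mean log2 RMA value over 21 arrays and the y axis the log2 difference, parabola 10 end minus parabola 3 end. The 45 red circles and 48 blue squares are genes called higher and lower in limma. The called genes lie at differences of 0.48 or more in size and at mean values from 2.09 to 8.79, with few at the dim end.

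Genes of energy shortage and amino acid breakdown rose or lay above 0. Of 9 measured members of this list, 3 were called higher (against 0.269% of all), none lower, and all 9 had differences above 0, against 47.1% of all genes. Their median difference was 0.47, against -0.01 over all genes. This list, like those below, was chosen with earlier results of these data known, so its counts are a description and no independent support. The arrays' mean over the 9 genes ran from 6.75 to 7.21 at parabola 10 end and from 6.01 to 6.59 at parabola 3 end (log2), so the groups did not overlap.

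ASPGB1 (AT3G16150), an asparaginase that splits asparagine into aspartate and ammonium, had log2 values of 7.83, 7.89 and 7.50 at parabola 10 end and 6.60, 6.87 and 6.13 at parabola 3 end. The groups did not overlap, and the lowest parabola 10 end array was above the highest parabola 3 end array. The log2 rise was 1.21 (SE 0.20, 2.31-fold, limma adjusted p = 0.00482). It passed with each array left out.

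ETFQO (AT2G43400), the ubiquinone oxidoreductase that takes up electrons from the mitochondrial oxidation of branched-chain amino acids, had 7.51, 7.96 and 7.50 at parabola 10 end and 7.04, 7.03 and 6.39 at parabola 3 end. It rose by 0.84 (SE 0.17, 1.79-fold, limma adjusted p = 0.0231). MCCB (AT4G34030), a subunit of 3-methylcrotonyl-CoA carboxylase in leucine breakdown, had 9.36, 9.70 and 9.31 at parabola 10 end and 8.70, 8.88 and 8.31 at parabola 3 end. It rose by 0.83 (SE 0.18, 1.78-fold, limma adjusted p = 0.0455). In both genes parabola 10 end replicate 2 was the highest array and parabola 3 end replicate 3 the lowest. Without parabola 3 end replicate 3 the limma adjusted p was 0.128 for ETFQO and 0.217 for MCCB, and without parabola 10 end replicate 2 it was 0.119 and 0.189. MCCB also lost its call without parabola 3 end replicate 1 (0.0862), parabola 10 end replicate 1 (0.0829) or replicate 3 (0.088).

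AT1G21400, on the list by its locus, had 6.99, 7.77 and 7.01 at parabola 10 end and 6.13, 6.55 and 5.53 at parabola 3 end. Its difference of 1.19 was nearly as large as that of ASPGB1 but did not pass (limma adjusted p = 0.0615). AKINBETA1, a regulatory subunit of SnRK1, had a difference of 0.47 (adjusted p = 0.243) and ATL8, a RING-type ubiquitin ligase gene, 0.45 (0.593), both with groups that did not overlap. BZIP53, a transcription factor of the low-energy response, differed by 0.12 (0.877), with overlapping groups.

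The replicates of these genes moved together. Parabola 10 end replicate 2 was the highest of its group in 9 of the 9 genes, parabola 3 end replicate 2 in 8, and parabola 3 end replicate 3 the lowest in 7. Over all single-gene probe sets each of these arrays held that place in 31.4% to 35.5%. The list's calls numbered 1 without parabola 3 end replicate 3 and 1 without parabola 10 end replicate 2.

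Beyond the list, further genes of carbon and amino acid metabolism were called higher, picked here by their symbols after their values were seen. PPDK (AT4G15530), pyruvate orthophosphate dikinase, which interconverts pyruvate and phosphoenolpyruvate, had 5.78, 6.59 and 5.77 at parabola 10 end and 4.55, 4.65 and 3.99 at parabola 3 end. This was the largest rise, 1.65 (SE 0.29, 3.13-fold, limma adjusted p = 0.00779), and its groups lay more than 1 log2 unit apart at their nearest arrays. Without parabola 3 end replicate 3 the rise was 1.44 and the adjusted p 0.0671. ALDH6B2 (AT2G14170), methylmalonate-semialdehyde dehydrogenase of valine breakdown, had 6.70, 6.99 and 6.79 at parabola 10 end and 6.03, 6.17 and 5.92 at parabola 3 end. It rose by 0.79 (SE 0.11, limma adjusted p = 0.00236).

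Both called sugar transporters with a symbol act at the vacuole membrane. They were grouped by symbol after their values were seen, and called genes with only a locus name are not covered. SWEET2 (AT3G14770), which carries glucose across the tonoplast, had 5.25, 6.20 and 5.25 at parabola 10 end and 4.43, 4.45 and 3.82 at parabola 3 end. It rose by 1.33 (SE 0.26, 2.51-fold, limma adjusted p = 0.0222), with the highest array again parabola 10 end replicate 2 and the lowest parabola 3 end replicate 3. Its adjusted p was 0.114 without the first of these arrays and 0.128 without the second. TMT1 (AT1G20840), the tonoplast monosaccharide transporter, had 9.02, 8.90 and 8.94 at parabola 10 end and 8.59, 8.31 and 8.27 at parabola 3 end. Its rise of 0.56 (SE 0.13, limma adjusted p = 0.0483) was smaller, at a higher level, with no overlap.

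**Figure D2:**
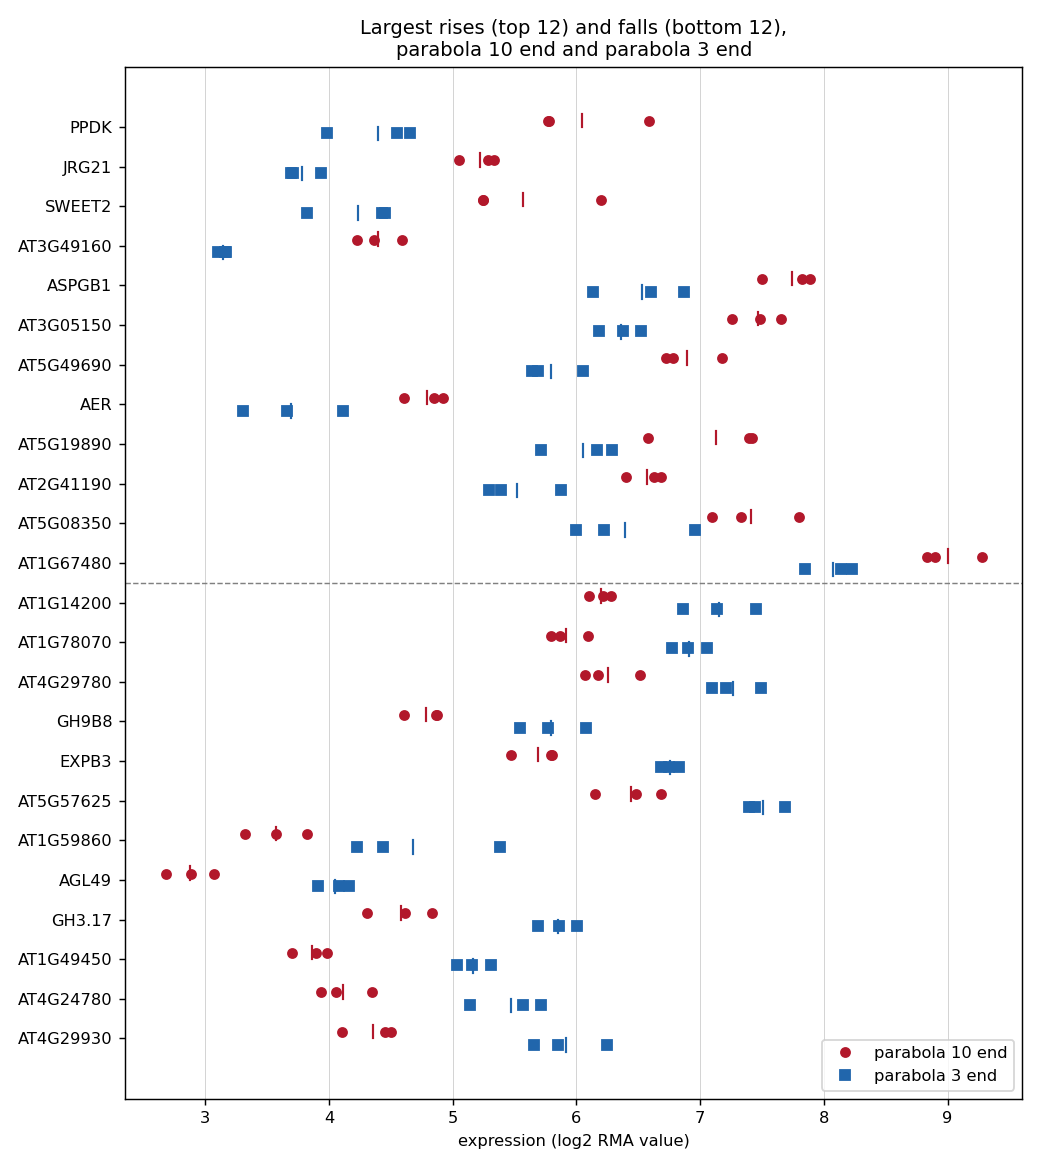
Log2 RMA value of each array (x axis) for the 12 largest rises (upper rows) and 12 largest falls (lower rows). Red circles are the 3 parabola 10 end arrays, blue squares the 3 parabola 3 end arrays and vertical ticks the group means. In all 24 genes the groups do not overlap, as the choice of these genes required. PPDK has the largest rise and AT4G29930 the largest fall.

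The second largest rise was in JRG21 (AT3G55970), a jasmonate-regulated oxygenase that inactivates jasmonic acid. It had 5.33, 5.29 and 5.05 at parabola 10 end and 3.93, 3.69 and 3.71 at parabola 3 end. The rise of 1.44 (SE 0.18, 2.72-fold, limma adjusted p = 0.000789) passed with each array left out. JRG21 also differed between tubes of the same moment, at -1.19 in tube A against tube B (adjusted p = 0.00184). The other measured members of the jasmonate list differed little: JMT, a jasmonate methyltransferase, by 0.17 (0.722) and MYC3, a transcription factor of the jasmonate response, by -0.0040 (0.997). OPCL1 (AT1G20510), a CoA ligase of jasmonate synthesis outside the list, went the opposite way. It had 6.33, 6.43 and 6.27 at parabola 10 end and 7.10, 7.45 and 7.13 at parabola 3 end, and fell by 0.88 (SE 0.16, limma adjusted p = 0.0109).

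UGT76B1 (AT3G11340), a glycosyltransferase acting on small defence signals such as isoleucic acid and salicylic acid, had 8.19, 8.36 and 8.02 at parabola 10 end and 7.51, 7.36 and 7.13 at parabola 3 end. It rose by 0.86 (SE 0.16, limma adjusted p = 0.0157), and like JRG21 it was lower in tube A than in tube B (-1.05, adjusted p = 0.00216). Its call was lost without parabola 10 end replicate 1 (0.0567) or 2 (0.0714) or parabola 3 end replicate 3 (0.105). Among the 94 measured cytochrome P450, glutathione transferase and glycosyltransferase genes of the list, 2 were called higher and 1 lower. Members of these families that the list did not reach are not counted. Over all single-gene probe sets these shares were 0.269% and 0.287%. Those called higher were UGT76B1 and UGT76E12 (0.63, limma adjusted p = 0.0493), and the one called lower was GSTU28 (-0.85, 0.0483). The last 2 were lost under at least 5 of the 6 omissions of an array. The list's median of -0.02 was close to that of all genes. AER (AT5G16970), a reductase of reactive alkenals, had 4.92, 4.85 and 4.60 at parabola 10 end and 3.30, 4.12 and 3.66 at parabola 3 end, a rise of 1.10 (SE 0.25, limma adjusted p = 0.0489) that was lost (0.0959 to 0.179) in 5 of the 6 omissions.

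GI (AT1G22770), the clock gene GIGANTEA, was the only one of 4 measured clock genes to pass, against 0.556% of all single-gene probe sets. It had 5.93, 5.49 and 5.68 at parabola 10 end and 4.77, 4.66 and 5.07 at parabola 3 end, a rise of 0.87 (SE 0.14, 1.83-fold, limma adjusted p = 0.00482) that held with each array left out. The call of GI was lost in the fit of only the 6 arrays compared, as well as under the tube block. The other clock genes overlapped between groups, at 0.23 for COR27, 0.07 for TIC and -0.06 for AT4G33980 (adjusted p from 0.676 to 0.938). The list was edited after its values were seen: CCR2 (-0.48, 0.266) was taken out because the gene that carries this symbol here is not the clock-regulated one of the same name.

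Of 15 measured hypoxia genes, 1 was called higher and none lower, against 0.269% and 0.287% of all single-gene probe sets. Above 0 lay 9 of the 15 (47.1% of all genes), with a median of 0.23 against -0.01 over all genes. The called gene, AT4G24110, had 2.98, 2.99 and 3.05 at parabola 10 end and 2.49, 2.39 and 2.08 at parabola 3 end, values near the low end of the array. It rose by 0.69 (SE 0.12, limma adjusted p = 0.00936), and was lost without parabola 10 end replicate 3 (0.0577) or parabola 3 end replicate 3 (0.0803). AT3G10040, for which RefSeq gives the name HYPOXIA RESPONSE ATTENUATOR1, differed by 0.71 (0.0785) and AT3G27220 by 0.72 (0.0968), both with no overlap. The fermentation genes PDC2, a pyruvate decarboxylase, and AlaAT1, an alanine aminotransferase, had differences of -0.16 (0.793) and -0.11 (0.844).

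Class III peroxidases, secreted enzymes of wall cross-linking and lignin formation, split in direction. Of 19 measured list members, 2 were called higher and none lower, against 0.269% and 0.287% of all single-gene probe sets. The list does not cover the whole family, so called peroxidases outside it are not counted. Above 0 lay 9 of the 19 (47.1% of all genes), with a median of -0.09 against -0.01 over all genes. AT5G19890 had 7.42, 6.58 and 7.39 at parabola 10 end and 6.16, 5.71 and 6.29 at parabola 3 end, a rise of 1.08 (SE 0.20, limma adjusted p = 0.0112) with replicate 2 lowest in both groups. It was lost without parabola 10 end replicate 1 (0.0737) or 3 (0.088) or parabola 3 end replicate 2 (0.0823). PRX52 rose by 0.71 (0.0489), and lost its call under each omission of an array (0.0566 to 0.256). AT4G26010 had the lowest difference of the list, -0.70 (0.171). CCOAMT (AT1G67980), a caffeoyl-CoA methyltransferase of the lignin pathway, had 4.74, 4.70 and 4.71 at parabola 10 end and 3.92, 4.11 and 3.34 at parabola 3 end, a rise of 0.93 (SE 0.20, limma adjusted p = 0.0391).

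The rest of the 12 largest rises have only a locus name here. AT3G49160 had 4.37, 4.59 and 4.22 at parabola 10 end and 3.17, 3.10 and 3.16 at parabola 3 end, the tightest parabola 3 end group among the 12 largest rises (SD 0.03, n = 3), with a rise of 1.25 (SE 0.16, limma adjusted p = 0.000789). AT3G05150 rose by 1.11 (0.00482) and AT1G67480 by 0.93 (0.00482), and these 3 passed with each array left out. AT5G49690 (1.10, 0.0415), AT2G41190 (1.05, 0.0476) and AT5G08350 (1.02, 0.0455) were each lost in at least 4 of the 6 omissions. AT5G08350 and its neighbour in RefSeq's gene order, AT5G08360 (0.59, limma adjusted p = 0.0388), were the only called genes next to each other on a chromosome.

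Genes of the cell wall were called lower or not at all. Of 52 measured members, 3 were called lower (against 0.287% of all) and none higher. The differences of 35 were below 0 (52.9% of all genes), with a median of -0.14 against -0.01 over all genes. For 15 of the 52 the parabola 10 end arrays lay all below the parabola 3 end arrays, against 8.96% of all single-gene probe sets. The arrays' mean over the list ran from 3.51 to 3.55 at parabola 10 end and from 3.70 to 3.74 at parabola 3 end (log2), with no overlap. The mean level of the root hair markers EXPA7 and EXPA18, which are also on this list, was lower at parabola 10 end as well. That rested on EXPA18 (-0.62), since EXPA7 differed by 0.09, and neither passed. The part of root hair levels in these falls was not tested.

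AT4G24780, on the list by its locus, had 3.93, 4.35 and 4.06 at parabola 10 end and 5.14, 5.71 and 5.57 at parabola 3 end. It fell by 1.36 (2.57-fold, SE of the log2 difference 0.19, limma adjusted p = 0.00186) and passed with each array left out. EXPB3 (AT4G28250), a beta-expansin that loosens walls, had 5.80, 5.47 and 5.80 at parabola 10 end and 6.83, 6.75 and 6.68 at parabola 3 end. It fell by 1.06 (SE 0.23, 2.09-fold, limma adjusted p = 0.0419). The difference was -1.12 to -0.95 when any one array was left out, but the adjusted p then lay between 0.0799 and 0.155. EXPA20 (AT4G38210), an alpha-expansin, had 4.46, 4.61 and 4.02 at parabola 10 end and 5.26, 5.00 and 4.87 at parabola 3 end. It fell by 0.68 (SE 0.15, limma adjusted p = 0.0455), and passed in 1 of the 6 omissions, that of parabola 10 end replicate 2 (0.0647 to 0.227 in the others). Other expansins that did not pass had differences of -0.80 (EXPB1, 0.210) and -0.62 (EXPA18, an expansin of root hair cells, 0.114). Members above 0 reached 0.36, in AT4G02300 (0.282).

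Further called falls outside the list bear on the wall and the cytoskeleton by their symbols, again picked after their values were seen. Results with single arrays left out are not given for GH9C2 and TUB7, nor above for ALDH6B2, TMT1, OPCL1 and CCOAMT. GH9B8 (AT2G32990), of the glycosyl hydrolase family that holds the plant endoglucanases, had 4.88, 4.61 and 4.86 at parabola 10 end and 5.77, 5.54 and 6.08 at parabola 3 end, and fell by 1.02 (SE 0.17, 2.02-fold, limma adjusted p = 0.00612). Without parabola 3 end replicate 3 its adjusted p was 0.0577. GH9C2 (AT1G64390), of the same family, had 5.80, 5.99 and 6.35 at parabola 10 end and 6.81, 6.66 and 6.71 at parabola 3 end, and fell by 0.68 (SE 0.15, limma adjusted p = 0.0415). TUB7 (AT2G29550), a beta-tubulin of the microtubules, fell by 0.52 (SE 0.12, limma adjusted p = 0.0489), with no overlap between groups.

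In the auxin list, 1 of 21 measured members was called lower and none higher, against 0.287% and 0.269% of all single-gene probe sets. Below 0 lay 17 of the 21 (52.9% of all genes), with a median of -0.13 against -0.01 over all genes. The call was GH3.17 (AT1G28130), which joins auxin to amino acids and so removes active hormone. It had 4.83, 4.31 and 4.61 at parabola 10 end and 5.69, 5.86 and 6.00 at parabola 3 end. It fell by 1.27 (SE 0.20, 2.41-fold, limma adjusted p = 0.00404), also with each array left out. The other GH3 genes measured had smaller differences that did not pass, from -0.37 in GH3.4 (0.546) to 0.02 in GH3.9 (0.993). LBD16, a factor of lateral root formation, had -0.25 (0.711). Of the 21 members, 14 were dim in both groups.

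Of 7 touch-inducible genes, 1 was called lower and none higher, against 0.287% and 0.269% of all single-gene probe sets. Below 0 lay 6 of the 7 (52.9% of all genes), with a median of -0.27 against -0.01 over all genes. AT4G29780 had 6.17, 6.51 and 6.07 at parabola 10 end and 7.21, 7.49 and 7.09 at parabola 3 end, and fell by 1.01 (SE 0.18, 2.02-fold, limma adjusted p = 0.00739). It was also lower in tube A than in tube B (-0.77, adjusted p = 0.03), and its adjusted p was 0.0586 without parabola 10 end replicate 3. AT1G76640, which RefSeq names CALMODULIN LIKE 39, had 5.46, 5.32 and 4.61 at parabola 10 end and 5.96, 6.61 and 6.24 at parabola 3 end, a difference of -1.14 that did not pass (limma adjusted p = 0.0844). STZ, a zinc finger factor induced by many stresses, had -0.41 (0.396), and EXO, a gene of growth promotion by brassinosteroids, 0.31 (0.617). None of the 17 measured calcium sensor and channel genes of the list passed, with a median of -0.11, which includes AT1G76640. Called genes outside that list are not covered.

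**Figure D3:**
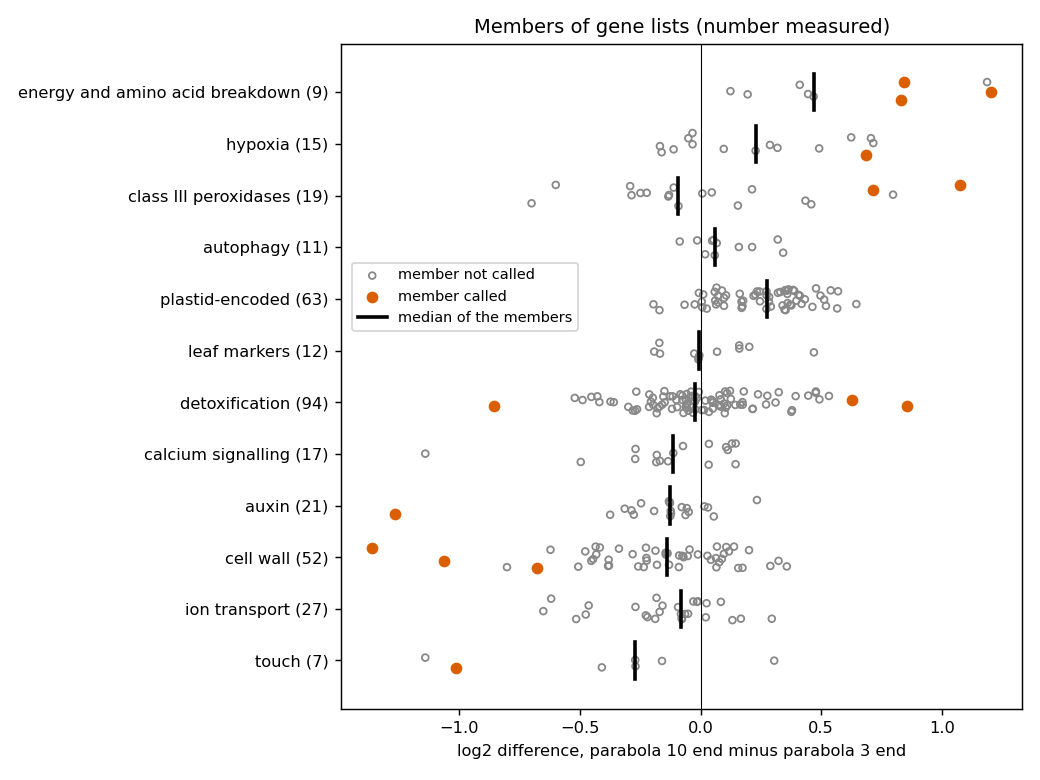
Each symbol is a measured member of a gene list (number measured in brackets) at its log2 difference, parabola 10 end minus parabola 3 end. Filled orange circles passed limma at an adjusted p under 0.05, open circles did not, and bars are list medians. All 9 genes of energy and amino acid breakdown lie right of 0 (47.1% of all genes), and 35 of 52 cell wall genes lie left of it (52.9% of all genes). The lists were chosen with earlier results of these data known.

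The remaining large falls have a locus name, apart from AGL49. AT4G29930 had 4.45, 4.11 and 4.50 at parabola 10 end and 5.66, 5.85 and 6.25 at parabola 3 end, and had the largest fall: it fell by 1.56 (SE 0.24, 2.96-fold, limma adjusted p = 0.00404). AT1G49450 had 3.89, 3.70 and 3.98 at parabola 10 end and 5.16, 5.31 and 5.04 at parabola 3 end, and fell by 1.31 (SE 0.17, limma adjusted p = 0.00113). AGL49, a MADS-box transcription factor, had 2.88, 3.07 and 2.68 at parabola 10 end and 4.08, 3.91 and 4.16 at parabola 3 end, and fell by 1.17 (SE 0.20, limma adjusted p = 0.00565). AT4G29930, AT1G49450, AGL49, AT1G78070 (-0.99, 0.00507) and AT1G14200 (-0.95, 0.00515) passed with each array left out. AT5G57625 (-1.07, limma adjusted p = 0.0214) was lost under 3 omissions. AT1G59860 (-1.11, 0.0489) was lost under 5, and without parabola 3 end replicate 2, its highest array at 5.38, its difference was -0.76 (0.209).

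Several lists held no call in either direction. Of 27 ion transport genes, 21 lay below 0 (52.9% of all genes), with a median of -0.08 against -0.01 over all genes. The lowest were the glucosinolate transporters GTR1 (-0.65, 0.156) and GTR2 (-0.48, 0.146) and the nitrate exporter NAXT1 (-0.62, 0.184), each with no overlap. Of 11 autophagy genes, 9 lay above 0 (47.1% of all genes), with a median of 0.06 and the highest in ATG8H (0.34, 0.460). Of 3 genes in the nitrogen assimilation list, ASPGB1 was the only call, against 0.556% of all single-gene probe sets. ASPGA1, a relative of ASPGB1, lay at 0.04 (0.972) and AT3G25790 at -0.09 (0.945). There was also no call in the lists of transcription factors (19 measured), defence (18), cold (9), oxidative stress (8), cytokinin (8) and cell cycle (8). Nor was there one in the lists of heat shock (7), abscisic acid (5), ubiquitin ligase (32) and secreted peptide genes (127). The 1 ethylene and the 1 ribosomal protein gene measured were not called either. The medians of these lists lay between -0.17 and 0.05. The lists do not cover whole families, and called family members outside them are not counted. AGL49, a MADS-box transcription factor outside the list, was called lower (-1.17, limma adjusted p = 0.00565).

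None of 63 plastid-encoded genes passed the test. The differences of 58 lay above 0 (47.1% of all genes), with a median of 0.27 against -0.01 over all genes. Even so, in 0 of the 63 did the parabola 10 end arrays lie all above the parabola 3 end arrays, and in 1 they lay all below. The arrays' mean over the list was 9.50 to 9.95 at parabola 10 end and 9.36 to 9.80 at parabola 3 end (log2), so the ranges overlapped. Parabola 10 end replicate 1 was the lowest of its group in 62 of the 63, and parabola 3 end replicate 1 the highest of its group in 57. In bulk roots, more plastids and more RNA per plastid cannot be told apart. The part of these levels in the other results was not tested.

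Among the other stages, the levels of the called genes were set against level flight and the end of parabola 1, whose 6 arrays share none with the comparison. Of the 45 genes called higher, 42 had a lower mean at parabola 1 end than in level flight (93.3%, median difference -0.47), and of the 48 called lower, 12 did (25%, median 0.25). Over all single-gene probe sets the share was 42.8% and the median 0.03. The correlation of both differences over 16722 probe sets was -0.19 (Pearson's r, across genes, which are not independent, from arrays normalised together), given as a description. The reasons for this opposition were not tested.

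**Figure D4:**
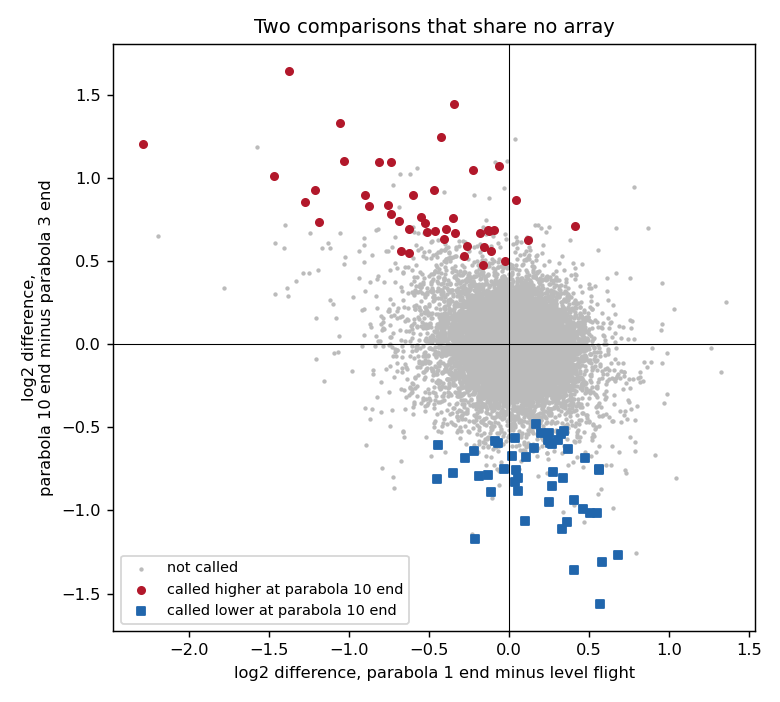
Each point is a single-gene probe set, with the log2 difference parabola 1 end minus level flight on the x axis and parabola 10 end minus parabola 3 end on the y axis. The axes share no array. Red circles (called higher at parabola 10 end) lie left of 0 in 42 of 45 cases, and blue squares (called lower) in 12 of 48.

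The mean of ASPGB1 was 7.73 ± 0.17 in level flight, 6.36 ± 0.07 at parabola 1 start, 6.51 ± 0.38 and 6.72 ± 0.34 in midpoint tubes A and B, 5.44 ± 0.19 at parabola 1 end, 6.53 ± 0.37 at parabola 3 end and 7.74 ± 0.21 at parabola 10 end (log2, SD, n = 3 each). Its parabola 10 end level thus differed from level flight by less than the spread of either group. PPDK stood at 5.00 ± 0.11 in level flight, 3.62 ± 0.47 at parabola 1 end, 4.40 ± 0.36 at parabola 3 end and 6.04 ± 0.47 at parabola 10 end. GI lay between 4.80 ± 0.15 in level flight and 4.85 ± 0.04 at parabola 1 end in 5 groups, at 4.32 ± 0.18 in tube B and at 5.70 ± 0.22 at parabola 10 end.

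Parabola 10 end had the highest mean of the 7 groups in 42 of the 45 rises and the lowest in 32 of the 48 falls, while parabola 3 end had the lowest mean in 11 of the rises and the highest in 25 of the falls. These places follow in part from the choice of genes on both groups. GH3.17 was at 5.50 ± 0.10 in level flight, 6.18 ± 0.43 at parabola 1 end, 5.85 ± 0.16 at parabola 3 end and 4.58 ± 0.26 at parabola 10 end. EXPB3 lay between 6.75 ± 0.07 at parabola 3 end and 7.19 ± 0.57 in tube A in the other 6 groups, and at 5.69 ± 0.19 at parabola 10 end. In AGL49 it was parabola 3 end that stood apart, at 4.05 ± 0.13, with the other groups between 2.88 ± 0.20 at parabola 10 end and 3.45 ± 0.41 at parabola 1 start.

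**Figure D5:**
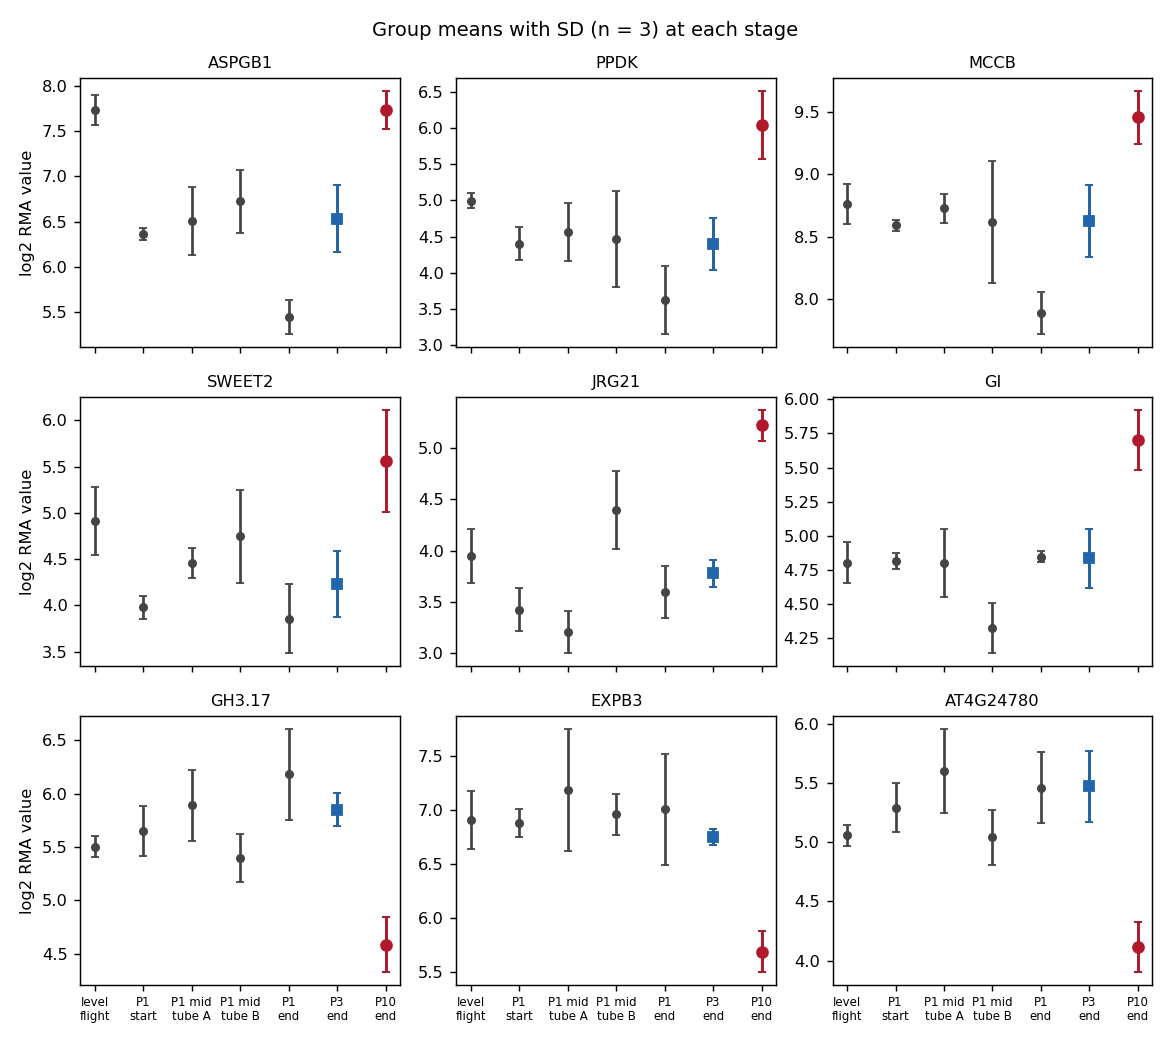
Mean log2 RMA value (y axis, each panel with its own range that does not start at 0) with SD bars (n = 3) for 9 genes in the 7 groups in flight order. Red circles mark parabola 10 end, blue squares parabola 3 end and grey circles the other groups. ASPGB1, PPDK and MCCB have their lowest mean at parabola 1 end (5.44, 3.62 and 7.89), and GH3.17, EXPB3 and AT4G24780 theirs at parabola 10 end (4.58, 5.69 and 4.11).

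The last comparison set the differences between the late stages against those between tubes of one moment, as a contrast of both in the same fit. With tube A minus tube B it gave 137 calls (0.784%), 81 higher (0.463%) and 56 lower (0.32%). The order of the tubes is arbitrary, and with tube B minus tube A, an alternative chosen after seeing the data, it gave 126 calls, of which 8 were shared. Of the 45 rises 18 passed with the first order, 9 with the second and 2 with both. Of the 48 falls 11 passed with the first order, 22 with the second and 0 with both (limma adjusted p). These genes were chosen on the same stage values, so the contrast does not show that a stage difference exceeded a tube difference.

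Side by side, some stage differences were close in size to the tube differences. JRG21 differed by 1.44 between stages and by -1.19 between tubes (tube A minus tube B), and UGT76B1 by 0.86 and -1.05. In ASPGB1 these differences were 1.21 and -0.22, in PPDK 1.65 and 0.09, and in GI 0.87 and 0.48. Among the falls they were -1.36 and 0.56 in AT4G24780, -1.27 and 0.49 in GH3.17, and -1.06 and 0.23 in EXPB3. Tube A against tube B itself was called in 2 of the 45 rises (4.44%) and 4 of the 48 falls (8.33%), all lower in tube A, against 238 of the 16722 single-gene probe sets (1.42%). The median size of the tube difference was 0.15 in the rises and 0.27 in the falls, against 0.12 over all single-gene probe sets. Across the 16722 probe sets, the differences between stages and between tubes correlated at 0.01, as a description across genes.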

How the data were processed

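The values are log2 expression levels as deposited. Per the submitters' processing notes, the authors used RMA, which corrects background, equalises the distributions of all arrays and summarises each probe set; the notes also name oligo, limma, R 4.0.0 and TAIR10. A change common to all transcripts is therefore invisible. For each array 100 ng of total RNA was labelled for the AraGene 1.0 ST platform, and the number of arrays limits the precision. All 21 columns were used, holding 38408 probe sets between 0.69 and 13.3 without missing values.

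Of these, 17481 are paired with genes in the platform annotation: 16722 with a single gene, 759 with more than 1. The other 20927 are unnamed here. RefSeq (TAIR10.1) matched 16574 of the 16722 and gave symbols, synonyms and gene order. No coordinates or sequences are given. Where probe sets shared a gene, the brightest on average was kept for lists and names. Lists were matched on symbol, synonym or locus and do not cover whole families. Called genes outside a list are not in its counts.

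All 17481 entered limma 3.58.1 (lmFit, eBayes; R 4.3.3, package data.table, version 1.17.8), in 1 two-sided fit of 7 group means with 14 residual degrees of freedom. P-values were adjusted by Benjamini-Hochberg within a comparison, and the threshold was 0.05. Named are the 12 largest rises and 12 largest falls past the threshold whose groups do not overlap, for each list the passing genes (at most 4, lowest p first), and all members of lists of at most 6 measured genes with 1 call. Other genes are said to be picked after their values were seen, or mark a list's range or a near miss. Genes and lists were chosen with earlier results of these data known, and CCR2 was taken out of the clock list after its value was seen. Replicate numbers did not pair the arrays (correlations of deviations -0.106, 0.0398 and 0.00557 for numbers 1, 2 and 3). On simulated data with 200 of 17481 probe sets changed, 10 runs of this comparison recovered 37.9% of changes of 0.5, 98.2% of 1 and 99.8% of 1.5 on the log2 scale, and 4.97% of calls were false. The simulated noise was independent between arrays and between probe sets, with no tube effect. These shares therefore check the fit alone and do not give the false share among the calls in the real data.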

Additional observations from a re-analysis of the deposited data

How the results depend on the processing

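The count of 96 calls for parabola 10 end against parabola 3 end was 162 among probe sets above the median brightness (8740 tested), 254 with array weights, 45 with only the 6 arrays compared and 0 with the tube as a random block. It was 133 with a variance trend and robust estimation, 76 after cyclic loess, 81 with the replicate block, and 96 over all probe sets, named or not, of which 43 were shared. Leaving out 1 array gave 39 to 83. For tube A against tube B, the count of 245 was 0 with only the 6 arrays compared (1802 at an unadjusted p under 0.05) and 33 to 391 with 1 array left out. For the difference between both, 137 became 126 with the tubes in the opposite order (8 shared), 219 above the median brightness and 212 with array weights, and 41 to 204 with 1 array left out. Where the cause is not in the construction of the alternative, it was not tested. None of the named genes that passed changed sign. Of the 24 largest rises and falls, 12 lost their call under the tube block alone and kept it under the other 13 settings. The energy list held between 0 and 4 calls and the cell wall list between 0 and 3 over all settings. The correlation for the tube block sets 1 pair of tubes against the spread within all 7 groups (mean squares ratio 1.85), since duplicateCorrelation gave -0.0726.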
